A study of Mus musculus with 8 samples.

Results

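The 10 genes described here are transcriptional targets of Wnt signalling in the intestinal crypt. They are Axin2, Nkd1, Rnf43, Znrf3, Ephb2, Ephb3, Cd44, Sox9, Myc and Cdca7, chosen by name with earlier results of these data known. Each was found as 1 row among the 54532 genes of the count table. In the crypt, Wnt ligands bind Frizzled and Lrp receptors on the epithelial cell, which stops the Axin and Apc complex from marking β-catenin for degradation, and β-catenin then enters the nucleus and activates genes together with factors of the TCF/LEF family. The response is strongest at the crypt base, where stem cells and Paneth cells lie, and fades as cells move up and differentiate. Some targets (Axin2, Nkd1, Rnf43, Znrf3) damp the pathway, others (Ephb2, Ephb3, Cd44) act at the cell surface, and others (Sox9, Myc, Cdca7) act in the nucleus.

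Intestinal epithelial cells were taken from female mice at lactation day 5, from 4 WT and 4 Rank-knockout animals, each giving 1 library. RANK (gene symbol Tnfrsf11a) is the receptor activator of NF-κB. In the knockout, floxed Rank was deleted by Cre recombinase under the Villin1 promoter, which is active throughout the intestinal epithelium, so that every epithelial cell type can carry the deletion, while the WT animals were littermates that kept RANK. Both genotypes were C57BL/6J females mated to wild-type males and nursing litters. For age, the study gives a broad range for its age-matched littermates and none for these dams, and the stretch of intestine sampled is not given in the sources used here. The libraries tag the 3′ end of polyadenylated RNA, so that counts do not grow with transcript length, and levels are given as CPM, the count of a gene relative to the library size, with sizes scaled by the trimmed mean of M values (TMM).

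Totals ran from 1530781 to 1616024 counts in WT replicates 1, 3 and 4, reached 4335653 in WT replicate 2, and ran from 2103716 to 4321154 in Rank-knockout. Tnfrsf11a gave 41.7 to 77.4 CPM in WT and 27.2 to 47.2 in Rank-knockout, and its log2 fold change (Rank-knockout minus WT, as throughout) was -0.67 with an SE of 0.22 and an edgeR adjusted p of 0.032. Where its 3′ tags lie relative to the deleted segment is not given in the sources used here, so that this value does not check the deletion. Across all genes 9855 passed the filter on low counts, and edgeR's quasi-likelihood test called 30.4% of them at an adjusted p below 0.05. The calls were 52.0% higher and the rest lower, a split that became 75.0% higher when libraries were scaled by their plain totals and 68.3% when the 50 most abundant genes were left out of the library sizes. To check the epithelial label, pan-epithelial genes were summed and gave 11365 to 12566 CPM in WT and 9270 to 11624 in Rank-knockout, while stromal genes summed to at most 20.3 CPM in any library.

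Of the 10 genes, 7 passed the filter and 3 (Nkd1, Znrf3 and Myc) did not. Among the 7, the receptors Ephb2 and Ephb3, the adhesion receptor Cd44, the transcription factor Sox9 and the chromatin factor Cdca7 were higher in Rank-knockout, by 2.02 to 2.42-fold. These 5 genes stand against 15.8% of all tested genes called higher, and 0 of the 7 were lower, against 14.6% of all tested genes. Axin2 and Rnf43, both inhibitors of the pathway, did not pass the test, and their estimates lay on opposite sides of 0. DESeq2 and limma also called 5 higher and 0 lower, and at an unadjusted p below 0.05 the edgeR counts were 5 and 0. The median log2 fold change of the 7 was 1.06, beside 0.02 over all tested genes. Since the 10 genes were chosen with earlier results of these data known, these contrasts describe them and are not an independent test. In RNA from a mixture of cells, more cells of a type and more RNA per cell cannot be told apart.

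**Figure D1:**
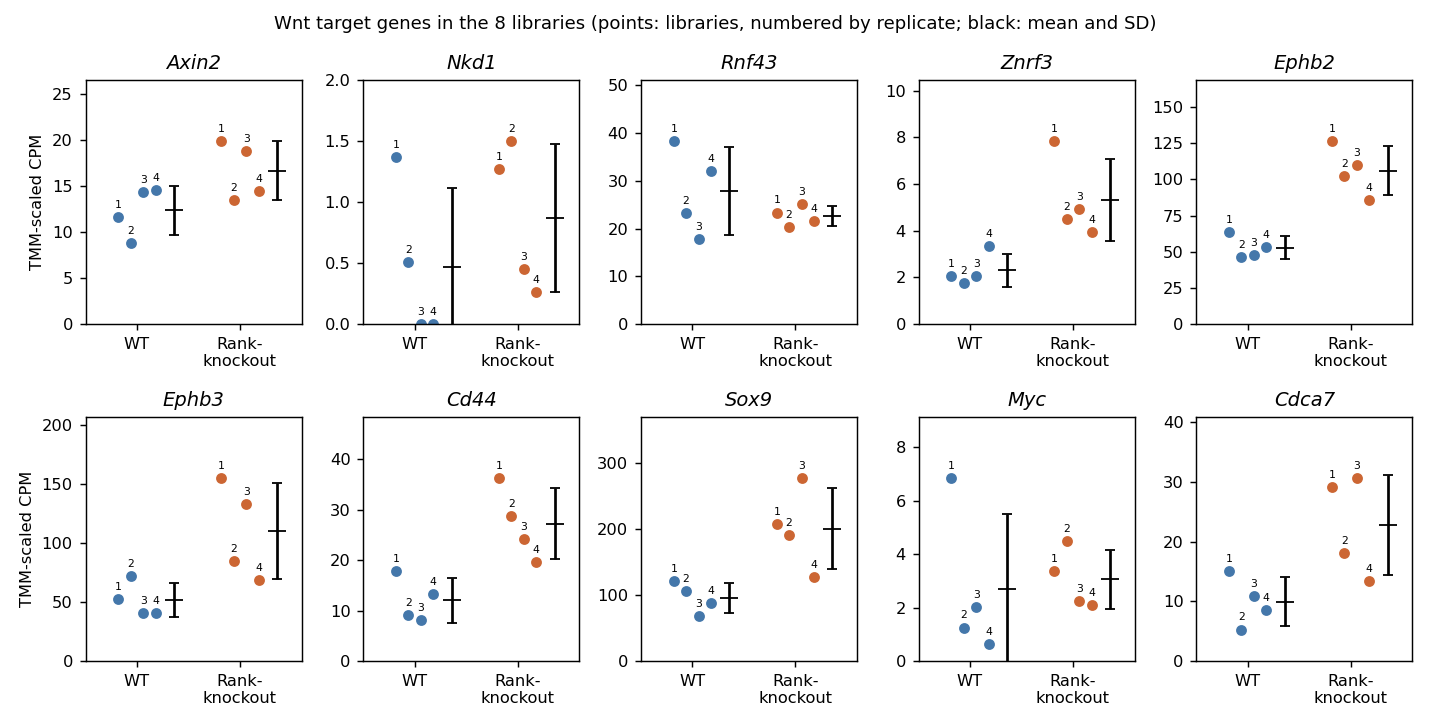
TMM-scaled CPM of each gene (vertical axis, starting at 0, own scale in each panel) in the 4 WT (blue) and 4 Rank-knockout (orange) libraries, numbered by replicate, with mean and SD in black. Ephb2, Cd44, Sox9 and Znrf3 show no overlap between genotypes, while the Rank-knockout points of Rnf43 sit within the WT range. Of all tested genes, 14.4% were higher in Rank-knockout without overlap. Znrf3 fell under the filter and is not among the tested genes.

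The promoter windows of 3 of these genes are shown, since Axin2 is the inhibitor most used as a readout of the pathway and Ephb2 and Ephb3 are the pair of receptors that rose. RefSeq windows (build GRCm38.p6) were matched for 7 of the 10 genes, with 8 windows in all, since Rnf43 has 2. Entries for Znrf3, Sox9 and Myc were not matched. Each sequence gives the bases before the RefSeq transcription start, 5′ to 3′ on the strand of the gene, with CG dinucleotides in capitals. The Axin2 window is at chr11:108920099-108920348 on the plus strand, that of Ephb2 at chr4:136836013-136836262 on the minus strand and that of Ephb3 at chr16:21204545-21204754 on the plus strand. RefSeq places the start of Ephb3 inside the GENCODE gene whose coordinates are used below, and the 40 bases between these starts are left out, so that 210 bases are shown for it and 250 for the others.
Axin2: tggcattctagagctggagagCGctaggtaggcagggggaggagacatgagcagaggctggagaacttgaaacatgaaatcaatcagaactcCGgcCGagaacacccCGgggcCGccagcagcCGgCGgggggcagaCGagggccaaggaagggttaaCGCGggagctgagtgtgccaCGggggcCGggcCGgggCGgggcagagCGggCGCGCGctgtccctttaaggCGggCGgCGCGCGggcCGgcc
Ephb2: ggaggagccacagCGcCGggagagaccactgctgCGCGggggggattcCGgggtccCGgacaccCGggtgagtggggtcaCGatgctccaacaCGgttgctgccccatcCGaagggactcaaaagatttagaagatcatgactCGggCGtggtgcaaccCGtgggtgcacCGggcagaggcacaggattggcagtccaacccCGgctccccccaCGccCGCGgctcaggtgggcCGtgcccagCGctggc
Ephb3: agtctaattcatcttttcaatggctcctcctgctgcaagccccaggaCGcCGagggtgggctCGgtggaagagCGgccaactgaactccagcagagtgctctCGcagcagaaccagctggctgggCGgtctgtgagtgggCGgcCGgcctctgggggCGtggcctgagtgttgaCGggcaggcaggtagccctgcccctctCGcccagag
The 3 stretches hold 24, 20 and 11 CG dinucleotides at a GC content of 69.2%, 68.4% and 65.2%. Over the full windows of 300 bases the 8 members' windows had a median of 16.5 CG dinucleotides, beside 7 over all 32851 promoter windows. The Rnf43 windows lay lowest in GC, at 46.7% and 44.3%. Both Rnf43 windows (from 87662837 and 87699647) and the Nkd1 window (from 88527383) lie inside their GENCODE genes, which start at 87662722 and 88521354. A TCF/LEF core, searched on both strands as CTTTG followed by 2 bases that are each A or T, was in 0 of the 8 windows and in 16.9% of all windows. The E-box CACGTG, the sequence bound by Myc with its partner Max, was in 0 of the 8 and in 7.15% of all, counted independently of the TCF/LEF core. These counts describe the letters of these windows only.

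The inhibitors of the pathway come first. Axin2 (chromosome 11, 108920349 to 108950783, plus strand) encodes the scaffold that rebuilds the β-catenin destruction complex. It gave 11.6, 8.87, 14.3 and 14.6 CPM in WT replicates 1 to 4 and 19.95, 13.5, 18.9 and 14.5 CPM in Rank-knockout replicates 1 to 4. Rank-knockout replicates 1 and 3 lay above every WT library, whereas replicates 2 and 4 lay within the WT range. The log2 fold change was 0.48 (SE 0.24, 95% confidence interval -0.03 to 0.998), which did not pass the test (edgeR adjusted p = 0.14). Counts were low, 17 to 35 in WT and 36 to 94 in Rank-knockout, so that counting alone gave a relative error of 16.9 to 24.3% in each WT library. Scaled by plain library totals, the value was 0.69 with an adjusted p of 0.041, a setting that moved the median of all genes up by 0.20. Without WT replicate 2 the value was 0.30 (adjusted p = 0.39), and over all 17 alternatives it ran from 0.30 to 0.69 with adjusted p values of 0.041 to 0.46.

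Axin1, the constitutive paralog, offers a comparison within each library. It gave 98.0 to 129 CPM in WT and 110 to 161 in Rank-knockout, with a log2 fold change of 0.18 that did not pass (SE 0.16, edgeR adjusted p = 0.42). The log2 ratio of Axin2 to Axin1 counts averaged -3.16 ± 0.31 (SD, n = 4) in WT and -2.90 ± 0.22 (SD, n = 4) in Rank-knockout. The genotypes overlapped, and the difference of 0.27 gave p = 0.20 in an exact two-sided permutation test over the 70 assignments of libraries (0.40 adjusted over 4 gene pairs; the smallest p this design allows is 0.029).

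Nkd1 (chromosome 8, 88521354 to 88594884, plus strand), which binds Dishevelled and limits its signalling, was near the detection limit. It had 2, 2, 0 and 0 counts in WT and 6, 4, 1 and 1 in Rank-knockout, and the 0 counts in WT replicates 3 and 4 allow up to 2.05 and 1.997 CPM (3 counts, a limit that covers counting error only). No difference was detectable at this depth: the fit without the filter gave a log2 fold change of 0.87 with an interval of -1.03 to 2.76 and an adjusted p of 0.57. The log2 ratio of Axin2 to Nkd1 spread over 2.81 to 5.49 in WT and 3.02 to 5.21 in Rank-knockout (exact permutation p = 0.80, 0.91 adjusted over the pairs).

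Rnf43 and Znrf3 encode related transmembrane ubiquitin ligases that remove Frizzled receptors from the cell surface and are themselves cleared when R-spondin binds Lgr receptors. Rnf43 (chromosome 11, 87662722 to 87735539, plus strand) gave 38.4, 23.3, 17.8 and 32.0 CPM in WT and 23.3, 20.3, 25.2 and 21.6 CPM in Rank-knockout. All 4 Rank-knockout libraries lay inside the WT range, and the log2 fold change was -0.29 (SE 0.22, interval -0.76 to 0.19, edgeR adjusted p = 0.35). Of the 10 genes, Rnf43 was the one with a lower mean CPM in Rank-knockout. Its interval lies below the estimates of the 5 genes that rose. The gene 1110028F11Rik overlaps it on the same strand, with 0 exonic bases shared.

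Znrf3 (chromosome 11, 5276324 to 5444847, minus strand) had few counts, 3, 7, 3 and 5 in WT and 37, 12, 11 and 15 in Rank-knockout. These correspond to 2.06, 1.77, 2.05 and 3.33 CPM in WT and 7.85, 4.50, 4.95 and 3.95 CPM in Rank-knockout, with no overlap. It fell under the filter, and the fit without the filter gave a log2 fold change of 1.32 (SE 0.47, adjusted p = 0.035), in a table of 20768 genes of which 8.54% were called higher and 6.66% lower. Of the 5 alternatives that gave a value, 3 lost the call, namely DESeq2 (adjusted p = 0.079) and edgeR without WT replicate 1 (0.058) or WT replicate 3 (0.055). It was kept in edgeR without WT replicate 4 (0.032) or Rank-knockout replicate 3 (0.042). These fits without a library used the count filter, which Znrf3 then passed, so that they also differ from the fit above in the genes tested.

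The log2 ratio of Rnf43 to Znrf3 counts within a library separated the genotypes. It was 4.01, 3.62, 2.92 and 3.14 in WT and 1.56, 2.12, 2.297 and 2.41 in Rank-knockout. Every WT library lay above every Rank-knockout library, and the difference was -1.33. The exact permutation p was 0.029, the smallest the design allows, and 0.11 after adjustment over the 4 pairs, so that it does not pass. The ratio rests on 3 to 7 counts of Znrf3 in each WT library.

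**Figure D2:**
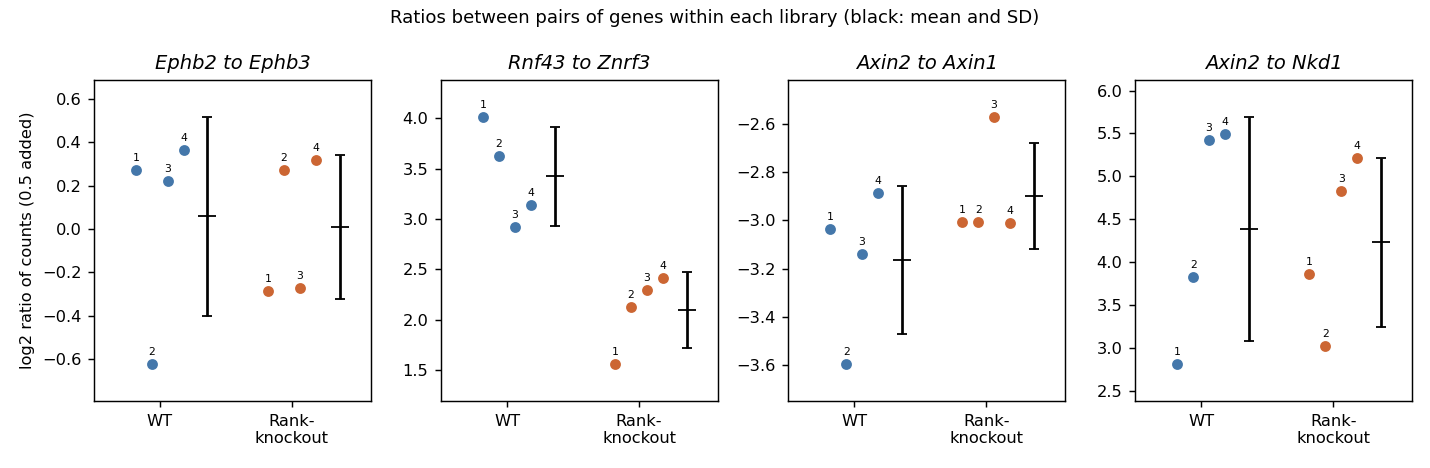
Log2 ratio of counts between 2 genes of the same library (vertical axis, 0.5 added to each count) for 4 pairs, by genotype, with replicate numbers, mean and SD. The Rnf43 to Znrf3 ratio runs from 2.92 to 4.01 in WT and from 1.56 to 2.41 in Rank-knockout, and the other pairs overlap.

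The receptors Ephb2 and Ephb3 are tyrosine kinases that place cells along the crypt axis, being repelled by ephrin-B ligands on cells nearer the villus. Ephb2 (chromosome 4, 136647539 to 136835988, minus strand) gave 63.7, 46.6, 47.8 and 53.3 CPM in WT and 127, 102, 110 and 85.7 CPM in Rank-knockout. Every Rank-knockout library lay above every WT library, a pattern found in 14.4% of all tested genes. The log2 fold change was 1.01 (SE 0.16, interval 0.66 to 1.36, edgeR adjusted p = 0.00057), and of all tested genes 5.76% had a larger one. Of the 7 tested members Ephb2 had the lowest variation between replicates, with a biological coefficient of variation of 0.17.

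Ephb3 (chromosome 16, 21204755 to 21223305, plus strand) gave 52.7, 72.0, 41.0 and 41.3 CPM in WT and 155, 84.4, 133 and 68.8 CPM in Rank-knockout. Rank-knockout replicate 4 lay just below WT replicate 2, and the other libraries were separated. The log2 fold change was 1.06 (SE 0.26, interval 0.49 to 1.63, edgeR adjusted p = 0.0091). Between the receptors, the log2 ratio of Ephb2 to Ephb3 counts averaged 0.06 ± 0.46 (SD, n = 4) in WT and 0.01 ± 0.33 (SD, n = 4) in Rank-knockout, and the difference was smaller than the spread between replicates (exact permutation p = 0.91, 0.91 adjusted over the pairs). WT replicate 2, at -0.62, lay apart from the other WT libraries, at 0.22 to 0.37.

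Among the other genes of this family, 9 were tested with Ephb2 and Ephb3 included, of which 4 were higher and 2 lower. Ephb4, the receptor of ephrin-B2, rose from 16.0 to 26.0 CPM in WT to 34.1 to 57.9 in Rank-knockout, and the log2 difference was 1.18 (SE 0.21, edgeR adjusted p = 0.0011). Epha1, a receptor of the A class, fell by 0.74 on the log2 scale (SE 0.18, edgeR adjusted p = 0.0074). Of the ligands, Efna4, named after its value was seen, was higher (log2 fold change 1.11, SE 0.32, edgeR adjusted p = 0.017). Efnb1 fell by 0.45 (edgeR adjusted p = 0.030), a call lost under 9 of 17 alternatives. Efnb2 had a log2 fold change of -0.53 that did not pass (edgeR adjusted p = 0.11). Efnb2 ran from 27.3 to 30.1 CPM in WT and from 12.8 to 30.1 in Rank-knockout, so that the genotypes overlapped, and without Rank-knockout replicate 4 its adjusted p was 0.012.

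Cd44 (chromosome 2, 102811141 to 102901665, minus strand) encodes a hyaluronan receptor that carries variant exons in crypt cells. It gave 17.8, 9.12, 8.20 and 13.3 CPM in WT and 36.3, 28.9, 24.3 and 19.8 CPM in Rank-knockout. The genotypes did not overlap, although Rank-knockout replicate 4 and WT replicate 1 were close. The log2 fold change was 1.22 (SE 0.27, interval 0.66 to 1.79, edgeR adjusted p = 0.0033). Tags at the 3′ end do not tell its splice forms apart.

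Of 10 genes listed for Cd44 partners and splicing, 5 were tested. Esrp1, an epithelial splicing regulator of Cd44 variant exons, was higher (log2 fold change 0.71, SE 0.19, edgeR adjusted p = 0.0090). Ezr, which links Cd44 and microvilli to actin, fell by 1.06 (SE 0.16, edgeR adjusted p = 0.00035), from 1084 to 1716 CPM in WT to 619 to 755 in Rank-knockout. The other 3 did not pass.

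Sox9 (chromosome 11, 112782224 to 112787760, plus strand), a transcription factor of the crypt base that Paneth cells need, gave 121, 106, 69.0 and 87.9 CPM in WT. In Rank-knockout it gave 208, 191, 277 and 127 CPM. The genotypes did not overlap, with Rank-knockout replicate 4 nearest to the WT range. The log2 fold change was 1.06 (SE 0.22, interval 0.58 to 1.53, edgeR adjusted p = 0.0030), and 830 counts in WT and 2589 in Rank-knockout made it the member with the most counts. Of 3 other tested Sox factors, Sox4, which is found in crypt progenitors, was higher (log2 fold change 0.97, edgeR adjusted p = 0.044), while Sox6 fell by 0.78 (edgeR adjusted p = 0.0021) and Sox13 fell by 0.75 (edgeR adjusted p = 0.028). The calls of Sox4 and Sox13 were lost under 7 and 8 of 17 alternatives.

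Myc (chromosome 15, 61985391 to 61990374, plus strand), the growth and ribosome biogenesis factor, was measured by few counts. It had 10, 5, 3 and 1 counts in WT and 16, 12, 5 and 8 in Rank-knockout. In CPM these are 6.85, 1.27, 2.05 and 0.67 in WT and 3.40, 4.50, 2.25 and 2.11 in Rank-knockout. WT replicate 1 was the highest of all 8, and the genotypes overlapped. The fit without the filter gave a log2 fold change of 0.36 with an interval of -0.67 to 1.39 (adjusted p = 0.68), so that no difference in Myc RNA was detectable at this depth.

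Genes that Myc regulates had more counts. Of 16 tested genes of nucleolus and growth, 12 were higher and 0 lower, with a median log2 fold change of 1.01. The 4 that did not pass, named after their values were seen, were Polr1b (0.89), Tert (0.42), Odc1 (-0.03) and Ldha (-0.08). Ncl, a nucleolar protein of ribosomal RNA processing, rose from 314 to 515 CPM in WT to 679 to 1361 in Rank-knockout (log2 fold change 1.16, SE 0.21, edgeR adjusted p = 0.0012), and Nolc1, a chaperone of small nucleolar particles, was higher by 1.24 on that scale (SE 0.22, edgeR adjusted p = 0.00097). In the network of Myc partners, 10 genes were tested, with 0 higher and 3 lower. Max, the obligate partner, fell by 0.80 (SE 0.18, edgeR adjusted p = 0.0043), and Mxd1, which competes with Myc for Max and is a gene of differentiated cells, fell by 1.07 (SE 0.23, edgeR adjusted p = 0.0032).

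Cdca7 (chromosome 2, 72476159 to 72486893, plus strand), the zinc-finger subunit that brings the remodeller Hells to chromatin, gave 15.1, 5.32, 10.9 and 8.65 CPM in WT and 29.1, 18.0, 30.6 and 13.4 CPM in Rank-knockout. Rank-knockout replicate 4 lay below WT replicate 1, and the other libraries were separated. The log2 fold change was 1.28 (SE 0.34, interval 0.56 to 1.99, edgeR adjusted p = 0.010), the largest estimate of the 7 tested members, with the widest interval among them. Of the 6 tested genes of Cdca7-Hells chromatin and DNA methylation upkeep, 4 were higher and 0 lower. Hells itself rose from 24.6 to 38.9 CPM in WT to 42.2 to 93.2 in Rank-knockout (log2 fold change 1.13, SE 0.24, edgeR adjusted p = 0.0029), and Dnmt1, the maintenance DNA methyltransferase, was higher by 1.06 on that scale (SE 0.19, edgeR adjusted p = 0.00095).

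**Figure D3:**
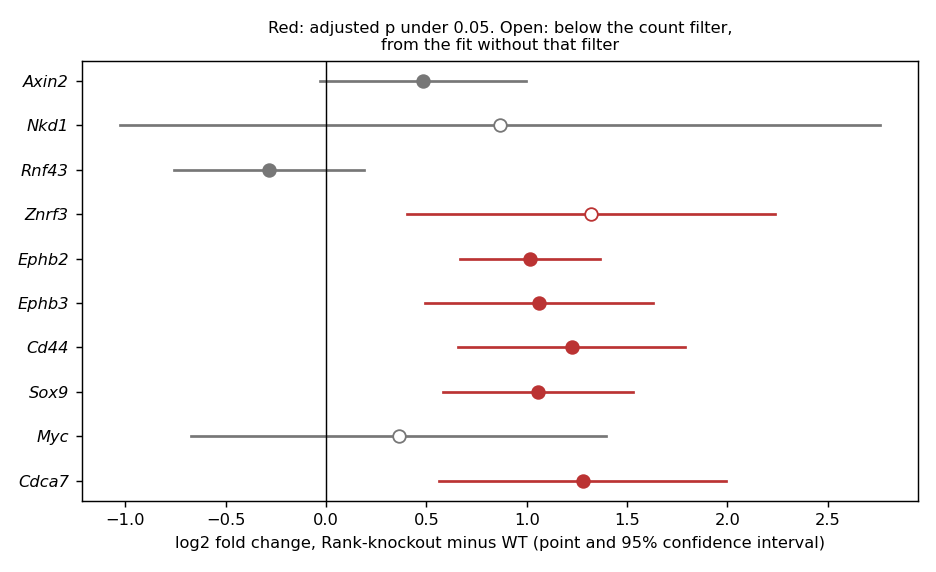
Log2 fold change of each gene (horizontal axis, Rank-knockout minus WT) with its 95% confidence interval, red where the adjusted p is below 0.05 and open where the gene was below the filter and the fit without it is shown. The 5 filled red points lie between 1.01 and 1.28, and the interval of Rnf43 ends at 0.19.

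The genes differed in how they varied between animals of one genotype. WT replicate 1 was the highest WT library for 7 of the 10 genes, and Rank-knockout replicate 4 was the lowest Rank-knockout library for 8 of the 10. Summed over the 10 genes, levels were 331, 275, 213 and 255 CPM in WT replicates 1 to 4 and 611, 468, 626 and 357 CPM in Rank-knockout replicates 1 to 4, with no overlap. Sox9, Ephb2 and Ephb3 weighed most in this sum. Their mean levels were 96.1, 52.8 and 51.7 CPM in WT and 201, 106 and 110 CPM in Rank-knockout. Other crypt genes were also low in Rank-knockout replicate 4. Genes of replication and the cell cycle summed to 1917 CPM in Rank-knockout replicate 4, below the 2224 to 3077 CPM of the other Rank-knockout libraries, and Paneth genes summed to 3282 CPM there, inside the WT range of 2335 to 5108. Without that library the same 5 members passed the test, and the median log2 fold change of the 7 was 1.22.

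**Figure D4:**
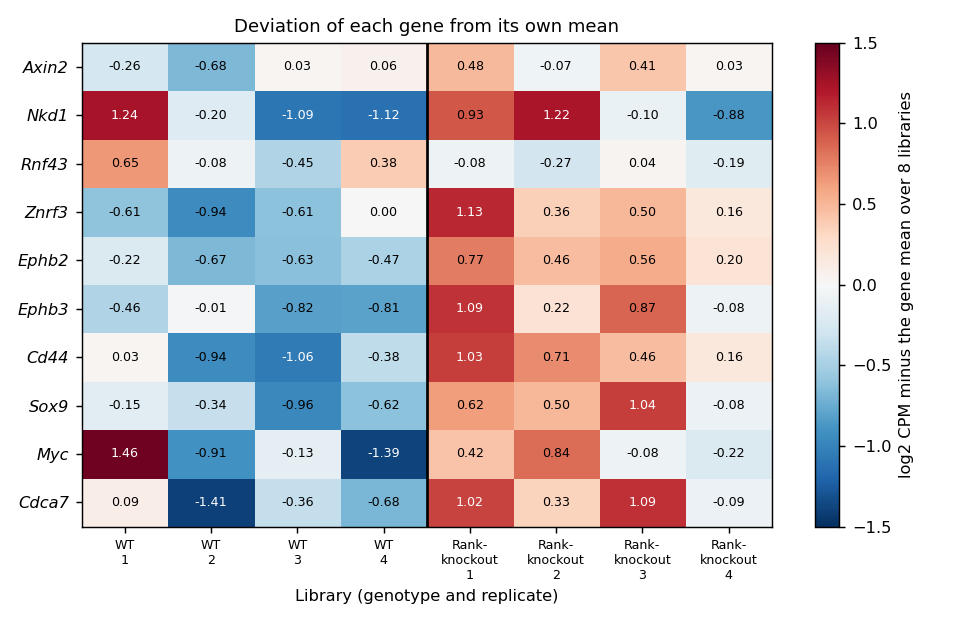
Log2 CPM of each gene (rows) minus its own mean over the 8 libraries (columns, WT left of the line), red above and blue below the mean. Rank-knockout replicate 4 has values near 0 for most genes, and WT replicate 1 stands out for Rnf43 and Myc, at 0.65 and 1.46. For Nkd1, WT replicate 1 is at 1.24, from 2 counts, beside 1.22 in Rank-knockout replicate 2.

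Against the mean profile of the 7 tested members over the 8 libraries, Ephb2 was the closest member, with a root mean square distance of 0.13 on the log2 scale. The most distant were Nkd1 (0.78), Myc (0.76) and Rnf43 (0.57), of which Nkd1 and Myc had the fewest counts. Relative to Ephb2 counts of the same library, Rnf43 had log2 ratios of -1.41 to -0.73 in WT and -2.43 to -1.98 in Rank-knockout, with no overlap, and Axin2 had -2.42 to -1.71 in WT and -2.90 to -2.52 in Rank-knockout, also with no overlap. These 2 ratios were chosen after the values were seen and are given without a test. Among 9461 other genes with a mean of at least 5 CPM, the 5 whose profiles lay closest to the mean profile were Gm6542 (0.099), Rfc1 (0.12), Srsf10 (0.13), Grhl2 (0.13) and Mllt1 (0.13). Rfc1 is a subunit of the clamp loader of DNA replication, Srsf10 a splicing factor, Grhl2 an epithelial transcription factor and Mllt1 a reader of acetylated chromatin in transcription elongation.

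The rest of the pathway was described from lists. Where a count of 0 is given for a direction of a list, edgeR at an unadjusted p below 0.05, DESeq2 and limma gave 0 as well, except that the unadjusted count was 1 higher for R-spondin and Lgr genes and 2 higher for nuclear factors. Of 21 genes for Wnt ligands and their secretion, 4 were tested, 2 were higher and 0 lower. Wnt3, the ligand made by Paneth cells, rose from 2.05 to 6.84 CPM in WT to 9.23 to 17.0 in Rank-knockout (log2 fold change 1.34, SE 0.34, edgeR adjusted p = 0.0081). Wls, the carrier that brings Wnt proteins to the cell surface, rose from 14.0 to 16.4 CPM to 19.8 to 31.0 (log2 fold change 0.77, SE 0.20, edgeR adjusted p = 0.0099). Genotypes did not overlap for either gene. Of 13 listed Paneth genes 12 were tested and 7 were higher with 0 lower, against 9 with DESeq2 and 3 with limma. Their summed level ran from 3282 to 10509 CPM in Rank-knockout, and the part of Paneth cells in the Wnt3 and Sox9 values was not tested.

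Of 5 tested Frizzled, Lrp and related receptors, 0 were higher and 1 was lower, Fzd4, which fell by 0.81 (SE 0.30) with a call lost under 12 of 17 alternatives. Of the R-spondin and Lgr genes, 2 were tested and neither passed. Lgr5, the stem cell receptor of R-spondin, gave 6.17, 1.27, 1.37 and 3.99 CPM in WT and 7.85, 6.004, 6.29 and 3.69 CPM in Rank-knockout, from 2 to 9 counts in each WT library. Its genotypes overlapped and its log2 fold change of 1.08 did not pass (SE 0.47, edgeR adjusted p = 0.090). Over the 15 alternatives that gave a value the estimate ran from 0.63 to 1.56, and 3 passed, namely without WT replicate 1 (adjusted p = 0.033), without Rank-knockout replicate 4 (0.048) and with plain library totals (0.047). Of 14 listed Wnt antagonists and their co-receptors, 2 were tested, the secreted Sfrp5 and the Dkk receptor Kremen1. Sfrp5 was higher (log2 fold change 1.35, edgeR adjusted p = 0.049), a call lost under 7 of 17 alternatives, and Kremen1, named after its value was seen, was at 0.23 and did not pass (edgeR adjusted p = 0.63).

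Inside the cell, 17 genes of the destruction complex, Dishevelled and their regulators were tested, of which 1 was higher and 2 were lower. Gsk3b, the kinase that marks β-catenin for degradation, fell by 0.56 (SE 0.13, edgeR adjusted p = 0.0046), from 248 to 308 CPM in WT to 186 to 200 in Rank-knockout. Amer1, an Apc-binding membrane protein, rose from 8.88 to 14.7 CPM in WT to 22.9 to 27.4 in Rank-knockout (log2 fold change 0.96, SE 0.21, edgeR adjusted p = 0.0031). Csnk1g1, a casein kinase that acts on Lrp6, was lower (-0.50) with a call lost under 12 of 17 alternatives. Ctnnb1, which encodes β-catenin, had a log2 fold change of -0.26 (SE 0.14) and did not pass (edgeR adjusted p = 0.17).

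In the nucleus, 12 genes were tested, which are TCF/LEF factors, their cofactors and the intestinal transcription factors Hnf4a and Cdx2, with 0 higher and 3 lower. Tcf7l2, the main TCF of the intestinal epithelium, fell by 0.43 (SE 0.14, edgeR adjusted p = 0.033), with a call lost under 8 of 17 alternatives. Tle3, a corepressor of the Groucho class, fell by 0.68 (SE 0.18, edgeR adjusted p = 0.0098), and Bcl9l, a coactivator of β-catenin, fell by 0.58 (SE 0.16, edgeR adjusted p = 0.011). The call of Bcl9l was lost with scaling by plain library totals (adjusted p = 0.067).

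A further 13 targets of crypt Wnt signalling were listed and 7 were tested, with 4 higher and 1 lower (2 and 1 with DESeq2, 3 and 1 with limma). Ccnd1, which encodes cyclin D1, rose from 86.5 to 184 CPM in WT to 319 to 488 in Rank-knockout (log2 fold change 1.44, SE 0.20, edgeR adjusted p = 0.00027). Ccnd2, another D-type cyclin, was higher by 0.84 (SE 0.21, edgeR adjusted p = 0.0085). Sp5, a direct Wnt target that encodes a transcriptional repressor, went the other way. It gave 19.5 to 24.0 CPM in WT and 6.004 to 11.2 in Rank-knockout, and fell by 1.26 on the log2 scale (SE 0.23, edgeR adjusted p = 0.0011) with no overlap. Ascl2, a transcription factor of crypt base stem cells, gave 2.05 to 14.4 CPM in WT and 5.54 to 25.2 in Rank-knockout and did not pass (log2 fold change 1.01, SE 0.53, edgeR adjusted p = 0.18). Over 17 alternatives its estimate ran from 0.72 to 1.78, and 4 of them passed, namely without the filter (adjusted p = 0.0095), with thinned counts (0.041), without WT replicate 2 (0.031) and without Rank-knockout replicate 4 (0.020). In a separate list of crypt stem cell markers, which shares Lgr5, Ascl2 and Tnfrsf19 with these targets, 4 of 8 tested genes were higher and 0 lower, with a median log2 fold change of 1.02. Those higher, named after their values were seen, were Smoc2 (1.30, edgeR adjusted p = 0.0011), Olfm4 (1.15, 0.0041), Slc12a2 (1.03, 0.015) and Rgmb (0.71, 0.026), and across alternatives 3 to 6 genes of that list were called higher.

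**Figure D5:**
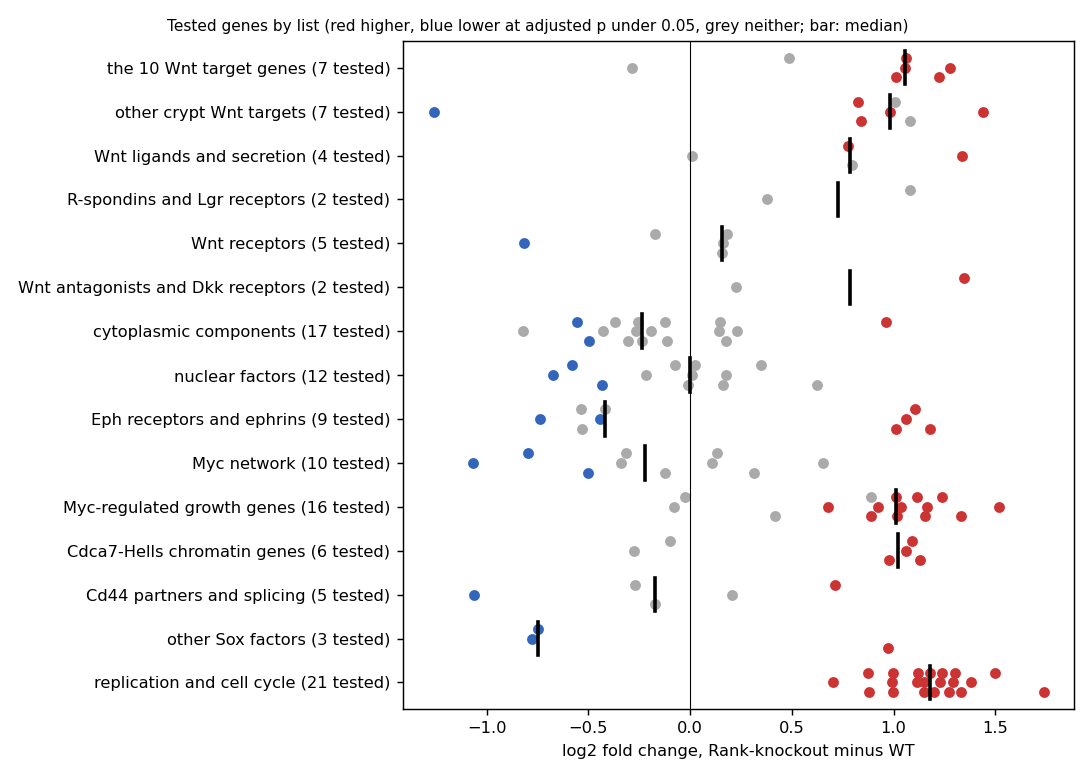
Log2 fold change (horizontal axis, Rank-knockout minus WT) of every tested gene in 15 lists, red higher and blue lower at an adjusted p below 0.05, grey neither, with the median of each list as a bar. The 7 tested Wnt targets, growth genes and replication genes have medians of 1.06, 1.01 and 1.18, whereas cytoplasmic components and nuclear factors have medians of -0.24 and 0.00.

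All 21 tested genes of replication and the cell cycle were higher (20 with DESeq2 and 20 with limma), with a median log2 fold change of 1.18, among them Mki67 (1.15, SE 0.20, edgeR adjusted p = 0.00095), Aurka (1.33, SE 0.17, edgeR adjusted p = 0.00014) and Ccna2 (1.74, SE 0.23, edgeR adjusted p = 0.00019). Of 14 villus enterocyte genes 13 were lower and 0 higher, and their summed level was 32487 to 42611 CPM in WT and 16055 to 21198.5 in Rank-knockout. Of 8 goblet genes 4 were lower and 2 higher, and their summed level did not overlap, at 13097 to 17423 CPM in WT and 7379 to 10089 in Rank-knockout. Enteroendocrine genes, at 569 to 652 CPM in WT and 451 to 779 in Rank-knockout, and tuft cell genes, at 39.6 to 65.9 and 40.6 to 53.5 CPM, overlapped between genotypes. Lymphocyte genes overlapped between genotypes, at 189 to 292 CPM in WT and 131 to 209 in Rank-knockout, while plasma cell genes did not, at 56.7 to 155 CPM in WT and 9.89 to 53.7 in Rank-knockout. The part of these shifts in the values of the 10 genes was not tested.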

How the data were processed

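The authors used BBDuk for trimming, bowtie2 to discard abundant sequences, STAR for alignment to GRCm38 with Ensembl gene models, and featureCounts in sense-strand mode. What they deposited are whole-number counts without normalization. No molecular identifiers are mentioned, so PCR copies count as reads. Of the 54532 genes, 54495 identifiers were matched to GENCODE M21 and 33764 had 0 counts in all libraries. The whole table was fitted with edgeR 4.0.16 in R 4.3.3 (filterByExpr, TMM, robust quasi-likelihood test, genotype as the only term), with Benjamini-Hochberg adjustment over all tested genes and a threshold of 0.05. Alternatives used limma 3.58.1, DESeq2 1.42.0, other scalings and filters, thinning, a replicate block and leaving out each library. Ratios used 0.5 added counts and exact two-sided permutation. Genes outside the 10 were named as the 2 with the smallest p in each direction of each pathway list, plus fixed partners and the genes closest in profile. Kremen1, Efna4, the 4 growth genes that did not pass and the crypt stem genes other than Lgr5 and Ascl2 fell outside this rule. The members and lists were chosen with earlier results of these data known. The labels name separate mice by number, and no other record of independent animals was used, so p values measure the spread between these samples.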

Additional observations from a re-analysis of the deposited data

Results flagged for a closer look

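A library stood apart from the other 3 of its genotype by Dixon's test in 10 of 112 sets of 4 values examined, where chance gives about 5.6. The total count of WT replicate 2 was 4335653, beside 1530781 to 1616024 in the other WT libraries. Its Ephb2 to Ephb3 log2 ratio was -0.62, beside 0.22 to 0.37. The Axin2 to Axin1 log2 ratio of Rank-knockout replicate 3 was -2.57, with the other 3 at -3.01. In Rank-knockout replicate 1, Axin1 was at 161 CPM (others 110 to 118), Aurka at 102 CPM (81.2 to 83.2) and Mki67 at 90.8 CPM (53.0 to 58.9). In WT replicate 1, Tcf7l2 was at 175 CPM (others 204 to 206), Rfc1 at 67.8 CPM (45.9 to 49.7) and Grhl2 at 28.8 CPM (16.7 to 18.0). In WT replicate 4, Ncl was at 314 CPM (others 485 to 515).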

How the results depend on the processing

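Ephb2, Ephb3, Cd44, Sox9 and Cdca7 kept their direction and passed the threshold under all 17 alternatives, with largest adjusted p values of 0.0024, 0.037, 0.015, 0.014 and 0.041. The number of members called higher was 5 to 6 and the number lower 0, also when a library was left out (5 to 6 and 0), the added gene being Axin2 or Znrf3. Scaling by plain library totals called 2575 genes higher and 857 lower, beside 1555 and 1438, and moved the median of all genes by 0.20. That without the 50 most abundant genes moved it by 0.13. Fitting without the filter gave a median 0.10 higher, but over 20768 genes rather than 9855, so that the medians cover different genes. With a library left out, calls ran from 1020 to 1723 higher and 1097 to 1564 lower, with 1020 without WT replicate 4. The Axin2 to Nkd1 difference of -0.16 became 0.45 with 2 added counts. With a library left out it ran from -0.69 to 0.24, that of Ephb2 to Ephb3 from -0.28 to 0.051, Rnf43 to Znrf3 from -1.49 to -1.13 and Axin2 to Axin1 from 0.12 to 0.36, and none passed after adjustment. The cause of these changes was not tested. Replicate numbers gave correlations of deviations from -0.14 to 0.31, and 2 of 4 WT libraries correlated best with their own number, so that the numbers were not taken as pairs. With the replicate block 1708 genes were higher and 1602 lower, with 5 members higher and 0 lower. Beside the members, the crypt stem count, an alternative set chosen after seeing the data, was 3 to 6. Leaving out single libraries ended these calls, with the largest adjusted p given: Fzd4 (0.13) and Csnk1g1 (0.16) for 3 WT libraries each (replicates 1, 3 and 4, and 2, 3 and 4) and Rank-knockout replicates 1 to 3, Sfrp5 (0.16) for WT replicates 2 to 4 and Rank-knockout replicates 1 to 3, Efnb1 (0.087) for WT replicates 2 and 4 and Rank-knockout replicates 1 to 3, Sox4 (0.12) for WT replicates 2 to 4 and Rank-knockout replicates 1 and 3, Sox13 (0.091) for WT replicate 3 and Rank-knockout replicates 1 to 3, and Tcf7l2 (0.11) for WT replicates 3 and 4 and Rank-knockout replicates 2 and 3. Paneth calls (7 higher) were 9 with DESeq2 and 3 with limma, and the other crypt Wnt targets (4 higher) were 2 with DESeq2. Nkd1 and Myc had too few counts for a value in all but 1 alternative to the fit without the filter, and Znrf3 in all but 5. Counts were fewest for Nkd1, Znrf3 and Myc.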
